A study of Homo sapiens with 6 samples.

Results

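The transcription factors that set and keep the luminal identity of prostate epithelium were followed in C4-2 cells under a supraphysiological androgen level (SAL). They are 9 genes listed by symbol, HOXB13, FOXA1, GATA2, GATA3, GRHL2, SPDEF, CREB3L4, ONECUT2 and TRPS1, out of 55765 gene symbols in the count files, and all 9 were found there. C4-2 is an established castration-resistant subline of the prostate cancer cell line LNCaP, grown with serum. RNA-seq was compared between 3 libraries of cells given the solvent DMSO and 3 libraries of cells given 1 nM of R1881 (methyltrienolone, a stable synthetic androgen), all after 72 h, with replicates numbered 1 to 3 in each group. The data describe a single cell line in culture, and a change in a library cannot be told apart between fewer expressing cells and less RNA per cell.

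Luminal cells of the prostate make the secretory proteins of the gland and depend on androgens. FOXA1 is a forkhead pioneer factor that opens chromatin for other factors, and HOXB13 and GATA2 bind beside it at many of the same enhancers. GRHL2 maintains epithelial junctions, SPDEF is an ETS factor of secretory epithelium, and CREB3L4 is a membrane-bound bZIP factor that is highly expressed in prostate. ONECUT2 is a cut homeodomain factor linked to androgen-independent prostate cancer, and TRPS1 is an atypical GATA protein that acts mostly as a repressor. GATA3 marks luminal cells of breast and also occurs in prostate epithelium.

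Of these 9 genes, 4 were up-regulated and 2 down-regulated by SAL in edgeR with the replicate number as a block, against 11.5% and 9.37% of all 16835 genes tested. None of these 6 calls held without the block. SPDEF and CREB3L4 rose most, 4.56-fold and 2.48-fold, and GRHL2 and FOXA1 rose by smaller amounts, 1.38-fold and 1.26-fold. GATA2 and TRPS1 fell to 56.3% and 58.7% of their DMSO levels. HOXB13 and ONECUT2 did not pass the test, with 95.6% and 90.2% of the DMSO level, and GATA3 had at most 7 counts in any library and was too low to be tested.

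The sequences just upstream of the 2 genes that rose most and of the gene that fell most are shown because these genes carry the contrast. Each is the 250 bases before the RefSeq start in GRCh38.p14, a newer build than that of the counts, on the strand of the gene and 5′ to 3′. SPDEF is at chr6:34556330-34556579 on the minus strand, CREB3L4 at chr1:153968000-153968249 on the plus strand, and the upstream one of 2 GATA2 starts at chr3:128493202-128493451 on the minus strand. Capitals mark a motif match.
SPDEF: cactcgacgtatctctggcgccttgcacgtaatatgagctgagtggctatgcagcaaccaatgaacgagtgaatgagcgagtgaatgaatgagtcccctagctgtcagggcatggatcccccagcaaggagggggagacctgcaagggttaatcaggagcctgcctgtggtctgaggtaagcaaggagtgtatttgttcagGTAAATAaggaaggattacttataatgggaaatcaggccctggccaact
CREB3L4: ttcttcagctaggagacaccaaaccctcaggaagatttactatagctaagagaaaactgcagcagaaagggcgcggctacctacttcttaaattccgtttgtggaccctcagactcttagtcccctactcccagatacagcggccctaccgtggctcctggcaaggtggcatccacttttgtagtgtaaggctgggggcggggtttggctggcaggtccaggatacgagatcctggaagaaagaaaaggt
GATA2: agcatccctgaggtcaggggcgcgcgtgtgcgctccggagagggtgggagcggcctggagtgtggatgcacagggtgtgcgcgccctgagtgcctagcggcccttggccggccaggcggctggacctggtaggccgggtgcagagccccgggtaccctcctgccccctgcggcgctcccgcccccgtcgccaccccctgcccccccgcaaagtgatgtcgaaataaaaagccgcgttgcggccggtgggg

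These stretches were searched on both strands for an arm of the androgen response element (AGAACA), the forkhead motif (TGTTTAC, or TATTTAC as a variant), the GATA motif and the HOX13 motif. The GATA motif was taken as AGATAA, with AGATAG as a first variant, TGATAA as another and TGATAG as the last, and the HOX13 motif as CCAATAAA with CTAATAAA as a variant. The variants were added after a first search had been seen. The only match was a forkhead motif of SPDEF, read as GTAAATA on the strand of the gene from 49 to 43 bases before the start. It is a match of TATTTAC, a variant added after the first search, and the letters that are not variants had no match. Over 35116 RefSeq promoters of the same length, 12.4% held the arm of the androgen response element, 5.27% the forkhead motif, 22.3% the GATA motif and 1.5% the HOX13 motif. The GC content was 50.8% for SPDEF, 52.0% for CREB3L4 and 72.8% for GATA2, against a mean of 57.2% over all of these promoters. A match of letters is a description of the sequence and not a binding site.

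Between 6931042 and 9776990 counts remained per library after 523 rRNA gene symbols were removed. Levels are given as CPM, counts per 1000000 of the TMM-scaled library size. Differentially expressed genes (DEGs) were called with edgeR's quasi-likelihood test at a Benjamini-Hochberg adjusted p under 0.05, and 8 lineage factor genes were tested. DESeq2 with the block also called 4 of them up-regulated and 2 down-regulated, against 7.66% and 5.64% of all genes. Without the block only 0.107% and 0.0178% of all genes were called and none of the 8, with adjusted p from 0.574 to 1.00 in edgeR, although 2 of the 8 had an unadjusted p under 0.05 there. Same-numbered libraries did deviate together, with correlations of 0.886, 0.856 and 0.739 over the genes tested.

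**Figure D1:**
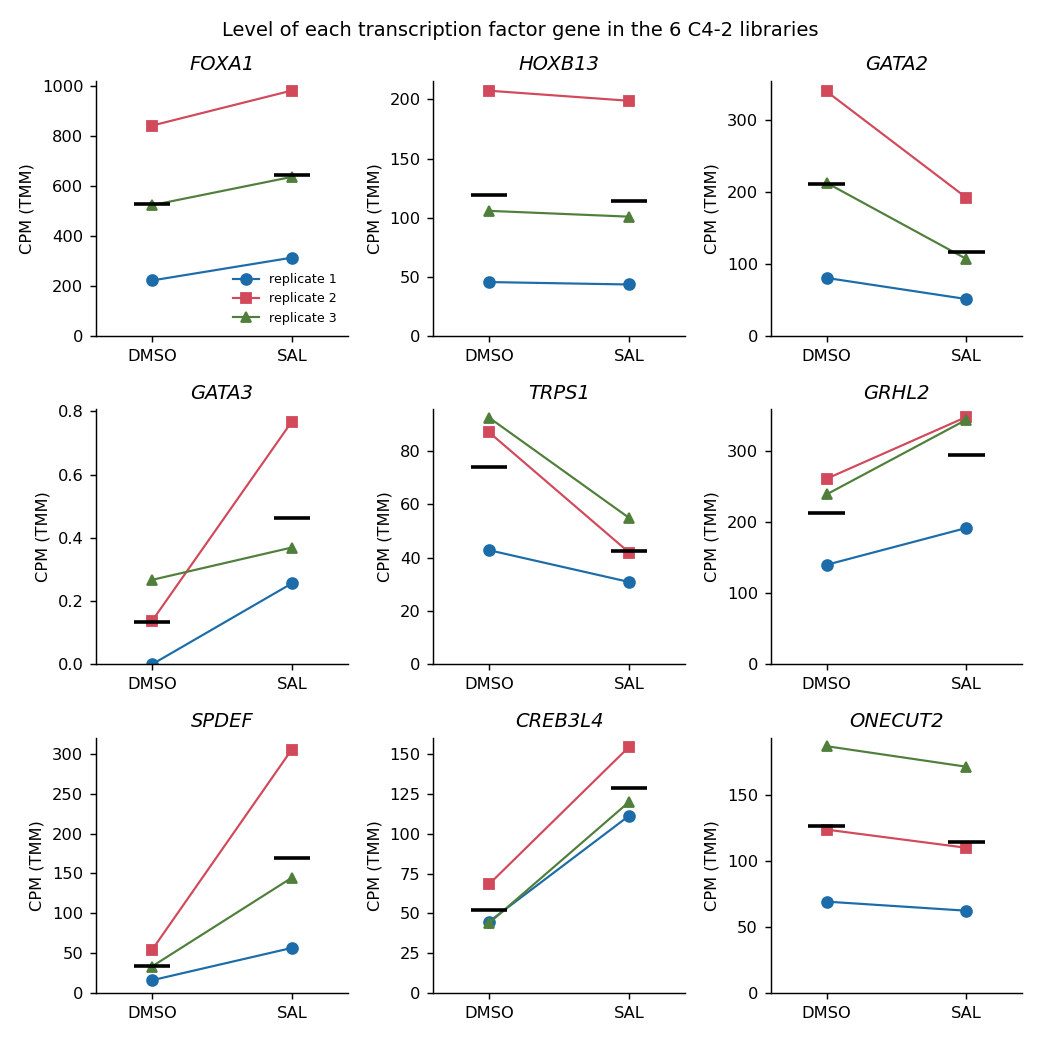
CPM (vertical axes, linear and starting at 0, with a separate scale for each gene) of the 9 genes in the 3 DMSO and 3 SAL libraries. Lines join libraries with the same replicate number and black bars are means. Each line for SPDEF and CREB3L4 climbs, each line for GATA2 and TRPS1 descends, and the lines of HOXB13 are nearly flat at 3 very different heights.

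SPDEF, on chromosome 6 (34505579 to 34524110, minus strand, GRCh37), had 15.9, 53.7 and 33.1 CPM in DMSO replicates 1, 2 and 3. In SAL replicates 1, 2 and 3 it had 56.5, 306 and 145 CPM. Every SAL library was above every DMSO library, and replicate 1 was lowest and replicate 2 highest in both groups. The log2 fold change (log2FC) was 2.19 (standard error, SE, 0.13, 95% interval 1.92 to 2.46, adjusted p = 1.16e-08), and the same-numbered pairs rose 3.52-fold, 5.67-fold and 4.34-fold. Only 0.731% of the genes tested had a higher log2FC. The raw counts behind these values were 128 to 393 in DMSO and 441 to 2787 in SAL.

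CREB3L4, on chromosome 1 (153940010 to 153946837, plus strand), had 44.9, 68.4 and 43.96 CPM in the DMSO libraries and 111, 155 and 120 CPM in the SAL libraries. These groups did not overlap either, and the libraries of a group were closer to each other than for any other of the 8 genes. The log2FC was 1.31 (SE 0.10, adjusted p = 1.75e-07), with 2.47-fold, 2.26-fold and 2.72-fold in the pairs. SPDEF and CREB3L4 were the only 2 of the 8 genes whose groups did not overlap in CPM, while 3.78% of all genes tested had every SAL library above every DMSO library. Exons of CREB3L4 overlap those of SLC39A1 over 280 bp and JTB over 93 bp on the other strand, and the counting did not use strand. SLC39A1 had a log2FC of 0.38 (adjusted p = 0.0146) and JTB of -0.17 (adjusted p = 0.281), both smaller in size than that of CREB3L4. The call of SLC39A1 was lost with DESeq2 and without replicate 3.

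Of the factors that share enhancers in luminal cells, FOXA1 rose, GATA2 fell and HOXB13 did not pass the test. FOXA1, on chromosome 14 (38058757 to 38065264, minus strand), had 222, 843 and 524 CPM in the DMSO libraries. In the SAL libraries it had 314, 984 and 638 CPM, so that the groups overlapped widely but each SAL library was above the DMSO library of its own number. The log2FC was 0.33 (SE 0.09, 95% interval 0.13 to 0.53, adjusted p = 0.0204), with 1.41-fold, 1.17-fold and 1.22-fold in the pairs. Without replicate 3 this call was lost (adjusted p = 0.294). TTC6, whose exons overlap those of FOXA1 over 16 bp on the other strand, had a log2FC of 0.49 (adjusted p = 0.00106), which also lost its call without replicate 3.

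GATA2, on chromosome 3 (128198270 to 128212044, minus strand), had 80.8, 340 and 213 CPM in the DMSO libraries and 51.4, 192 and 107 CPM in the SAL libraries. Each SAL library was below its DMSO partner, while the groups overlapped, with replicate 1 low in both. The log2FC was -0.83 (SE 0.10, adjusted p = 2.01e-05), and the pairs were at 0.637, 0.565 and 0.503 of the DMSO level. Of all genes tested, 4.25% had a lower log2FC than GATA2.

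HOXB13, on chromosome 17 (46802125 to 46806112, minus strand), had 45.6, 207 and 106 CPM in the DMSO libraries. The SAL libraries had 43.5, 199 and 101 CPM, almost the same value in each pair. Its log2FC of -0.07 did not pass the test (95% interval -0.26 to 0.13, adjusted p = 0.684), an interval that spans 0.833-fold to 1.1-fold. Of the spread of its log2 CPM, as a sum of squares, 99.9% lay between the replicate numbers and 0.133% between the treatments.

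**Figure D2:**
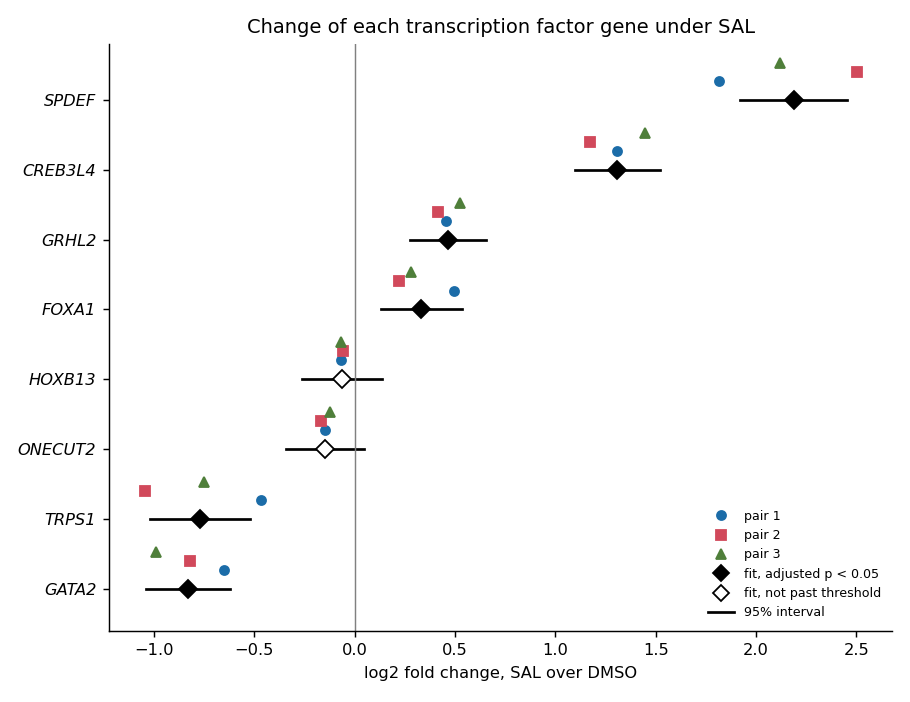
Log2 fold change of SAL over DMSO (horizontal axis) for the 8 genes tested. Diamonds are the fitted values, filled where the adjusted p was under 0.05, lines are 95% intervals, and coloured points are the 3 same-numbered pairs. All 3 points of each gene lie on 1 side of 0, from GATA2 and TRPS1 at the lower left to SPDEF at 2.19 at the upper right.

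Of the other zinc finger factors of the GATA kind, TRPS1 fell and GATA3 was near 0. TRPS1, on chromosome 8 (116420724 to 116821899, minus strand), had 42.7, 86.8 and 92.3 CPM in the DMSO libraries and 30.9, 41.9 and 54.8 CPM in the SAL libraries. Replicate 1 of DMSO lay within the range of the SAL libraries, and each pair fell. The log2FC was -0.77 (SE 0.12, adjusted p = 0.000211), and the pairs were at 0.724, 0.484 and 0.595 of the DMSO level. GATA3, on chromosome 10 (8087341 to 8117161, plus strand), had 0, 1 and 2 counts in the DMSO libraries and 2, 7 and 3 in the SAL libraries, so 5 of the 6 libraries were at or under a floor of 3 counts and no fold is given. Over the same libraries GATA2 had 4736 counts in DMSO and 3024 in SAL.

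GRHL2, on chromosome 8 (102504667 to 102681954, plus strand), had 140, 261 and 239 CPM in the DMSO libraries. It had 192, 348 and 344 CPM in the SAL libraries, and the 3 pairs rose by nearly the same factor, 1.37-fold, 1.33-fold and 1.44-fold. The log2FC was 0.46 (SE 0.09, 95% interval 0.27 to 0.66, adjusted p = 0.00156). As with FOXA1, the call was lost without replicate 3 (adjusted p = 0.149), where the log2FC was 0.43.

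ONECUT2, on chromosome 18 (55102606 to 55158530, plus strand), had 69.3, 124 and 187 CPM in the DMSO libraries and 62.4, 110 and 172 CPM in the SAL libraries. It was slightly lower in each pair, at 0.901, 0.889 and 0.917 of the DMSO level, but the log2FC of -0.15 did not pass the test (95% interval -0.34 to 0.05, adjusted p = 0.292). Of its sum of squares, 98.4% lay between the replicate numbers. Like TRPS1, ONECUT2 was highest in replicate 3, whereas the other 6 genes tested were highest in replicate 2.

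The levels of the lineage factors differed strongly between replicate numbers. For 6 of the 8 genes tested, the number carried over 50% of the log2 CPM sum of squares, against 38.5% for SPDEF and 12.3% for CREB3L4. Over all genes tested the number carried 77.1% and the treatment 16.8%. Within DMSO, the highest library exceeded the lowest 4.55-fold for HOXB13, 4.21-fold for GATA2, 3.79-fold for FOXA1 and 1.56-fold for CREB3L4. Replicate 1 was the lowest library for 7 of the 8 genes in DMSO and for all 8 in SAL. The libraries of replicate 1 also had the largest share of counts on their 100 highest genes, 27.2% in DMSO and 26.4% in SAL against 16.7% to 22.7% in the other libraries, and the largest share removed as rRNA, 27.7% and 27.8%. Of reads on genes, on no gene or ambiguous, those on no gene were 41.7%, 32.6% and 51.1% in DMSO replicates 1, 2 and 3. In SAL replicates 1, 2 and 3 they were 42.6%, 26.7% and 46.3%. The part of any of these shares in the levels was not tested.

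Levels were compared between factors per length. CPM per kb of exon (exon length from GENCODE v44 on GRCh37) was 120 ± 70.3 for FOXA1 in DMSO (SD, n = 3), which was above every other factor in each library and above 98.6% of 13138 genes tested with a known length. GATA2, HOXB13 and GRHL2 followed at 43.0 ± 26.4, 39.4 ± 26.9 and 35.2 ± 10.6, means that differed by less than their SDs. Within libraries GATA2 was above HOXB13 in 3 of 3, and HOXB13 above GRHL2 in 1 of 3. In DMSO replicate 2 GATA2 and HOXB13 were at 69.25 and 68.26, so their order there depends on the exon lengths used. CREB3L4 and SPDEF were next at 18.1 ± 4.77 and 17.9 ± 9.91, with CREB3L4 above SPDEF in 1 of 3 libraries. ONECUT2 and TRPS1 were lower, at 7.66 ± 3.57 and 6.70 ± 2.46, and GATA3 was at 0.0397 ± 0.0394.

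In SAL, FOXA1 remained highest in each library, at 146 ± 75.9 CPM per kb. SPDEF had the next mean, 88.2 ± 66.0, and was above GRHL2 in 2 of 3 libraries. GRHL2 (48.7 ± 14.7), CREB3L4 (44.3 ± 7.89) and HOXB13 (37.7 ± 25.9) differed by less than their SDs. GATA2, at 23.8 ± 14.4, was below HOXB13 in each SAL library after being above it in each DMSO library, though barely so in DMSO replicate 2. ONECUT2 and TRPS1 were at 6.93 ± 3.31 and 3.85 ± 1.09.

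**Figure D3:**
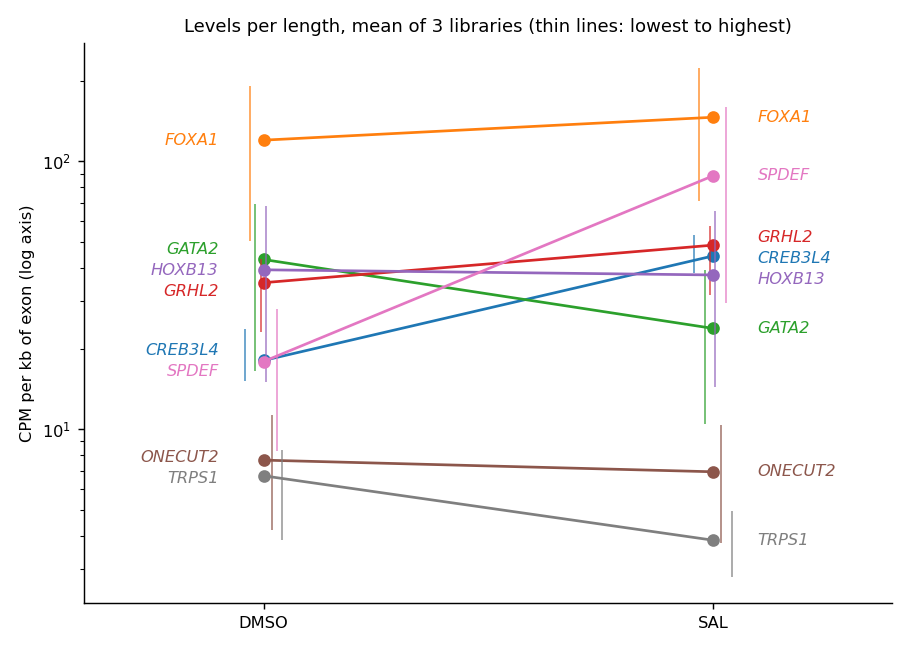
Mean CPM per kb of exon (vertical log axis) of 8 lineage factor genes in DMSO and SAL, with thin vertical lines from the lowest to the highest of the 3 libraries. GATA3, near 0, is left out. The lines of SPDEF and CREB3L4 cross those of HOXB13 and GATA2, and most of the thin lines overlap within a condition.

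Ratios between factors within a library do not depend on the scaling between libraries. The ratio of GATA2 to FOXA1 per kb was 0.326, 0.363 and 0.365 in the DMSO libraries and 0.147, 0.176 and 0.151 in the SAL libraries. It was thus much closer between replicates than the level of either gene, and the SAL value was 0.450, 0.484 and 0.413 of the DMSO value in the pairs. The ratio of SPDEF to FOXA1 was 0.165, 0.147 and 0.146 in DMSO and 0.415, 0.716 and 0.523 in SAL. The ratio of TRPS1 to FOXA1 also separated the groups, with 0.0768, 0.0411 and 0.0704 against 0.0393, 0.0170 and 0.0344.

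For HOXB13 the ratio to FOXA1 overlapped between the groups, with 0.298, 0.357 and 0.293 in DMSO and 0.202, 0.294 and 0.230 in SAL, and the SAL value was 0.677, 0.822 and 0.784 of the DMSO value in the pairs. The ratio of HOXB13 to GATA2 was 0.913, 0.986 and 0.803 in DMSO and 1.37, 1.67 and 1.52 in SAL. SPDEF passed from below GATA2 to above it in each library, with ratios of 0.504, 0.406 and 0.399 in DMSO and 2.82, 4.08 and 3.47 in SAL. The ratio of SPDEF to TRPS1 was 2.14, 3.57 and 2.07 in DMSO and 10.6, 42.1 and 15.2 in SAL. These pairs of genes were chosen after their values had been seen, and the ratios were not tested.

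**Figure D4:**
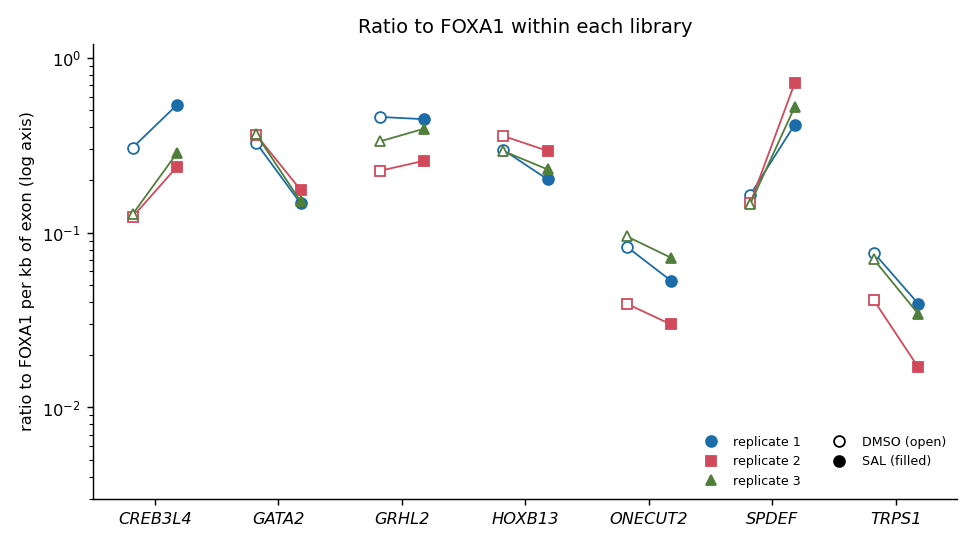
Ratio of each factor to FOXA1 per kb of exon in the same library (vertical log axis), with open symbols for DMSO, filled symbols for SAL and lines joining replicates of the same number. The ratios of GATA2 lie between 0.326 and 0.365 in DMSO and between 0.147 and 0.176 in SAL, while those of CREB3L4, GRHL2, HOXB13 and ONECUT2 overlap between the groups.

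Known relatives of the lineage factors by protein family were mostly low or did not pass the test. Of 32 such genes, 14 were tested, 2 were up-regulated and 3 down-regulated. These were 14.3% and 21.4% of the 14, against 11.5% and 9.37% of all genes tested. The median log2FC of the 14 was -0.09, against -0.0011 for all genes and 0.13 for the 8 lineage factors. FOXA2 and ONECUT3 had no counts, and FOXA3 and ONECUT1 had at most 1 count in a library, so that FOXA1 and ONECUT2 were the only FOXA and ONECUT genes above this level. Of the GATA family, GATA6 was tested besides GATA2 and TRPS1, with 4.87 CPM in DMSO and 4.55 in SAL and a log2FC of -0.12 (adjusted p = 0.778).

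HOXA13, the HOX13 relative of HOXB13 that patterns limbs and the urogenital tract, was down-regulated, with 10.9 ± 3.76 CPM in DMSO against 3.05 ± 1.16 in SAL (SD, n = 3) and a log2FC of -1.84 (SE 0.22, adjusted p = 2.61e-05). HOXB9 of the same cluster as HOXB13 had a log2FC of -0.91 (adjusted p = 0.00679), and HOXC13 of -0.63 (adjusted p = 0.0665). The other relatives tested from the HOXB cluster, HOXB7, HOXB6 and HOXB5, had log2FC values of 0.06, -0.02 and -0.24 and were not called. CREB3, a relative of CREB3L4 that also resides in membranes, rose from 12.2 ± 4.91 to 23.2 ± 7.19 CPM, a log2FC of 0.95 (SE 0.15, adjusted p = 0.000282). CREB3L2, another relative, had a log2FC of 0.40 (adjusted p = 0.0258), and ELF3, an epithelial ETS factor like SPDEF, of -0.79 (adjusted p = 0.0277). EHF, the ETS relative with the highest level at 724 CPM in DMSO, had a log2FC of -0.01 (adjusted p = 0.964). The calls of CREB3L2 and ELF3 were lost with DESeq2, and that of ELF3 without replicate 2. Without replicate 3 the calls of CREB3L2, HOXB9 and ELF3 were lost, and 1 relative was up-regulated and 1 down-regulated.

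Among 19 partners of the lineage factors, such as the TALE homeodomain proteins that bind with HOX proteins, 15 were tested. Of these, 1 was up-regulated and 2 were down-regulated, with a median log2FC of 0.02. The shares were 6.67% and 13.3%, against 11.5% and 9.37% of all genes tested. The down-regulated partners included TLE3, a Groucho corepressor that binds forkhead factors, with a log2FC of -0.61 (SE 0.10, adjusted p = 0.000354). MEIS1, a TALE cofactor of HOX proteins, was up-regulated at a low level, from 3.87 ± 0.82 to 6.99 ± 2.39 CPM (log2FC 0.83, adjusted p = 0.0246). None of the 15 passed the test without replicate 3, where 2 had an unadjusted p under 0.05, and MEIS1 did not pass with DESeq2 or without replicate 1. The methyltransferase genes KMT2C and KMT2D and the demethylase gene KDM1A had log2FC values of 0.10, 0.06 and -0.10 and were not called.

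Of 17 other transcription factors of prostate epithelium, 16 were tested, 8 were up-regulated and 1 was down-regulated, with a median log2FC of 0.24. KLF5 and KLF4, Krüppel-like factors of epithelial differentiation, had log2FC values of 1.96 and 1.48 (adjusted p = 1.14e-06 and 3.47e-05). POU2F1, an octamer-binding factor, was the down-regulated gene, at -0.40 (adjusted p = 0.00792), a call lost without replicate 3. In that setting 5 of the 16 were up-regulated and none down-regulated, while 750 of all genes were up-regulated and 483 down-regulated.

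**Figure D5:**
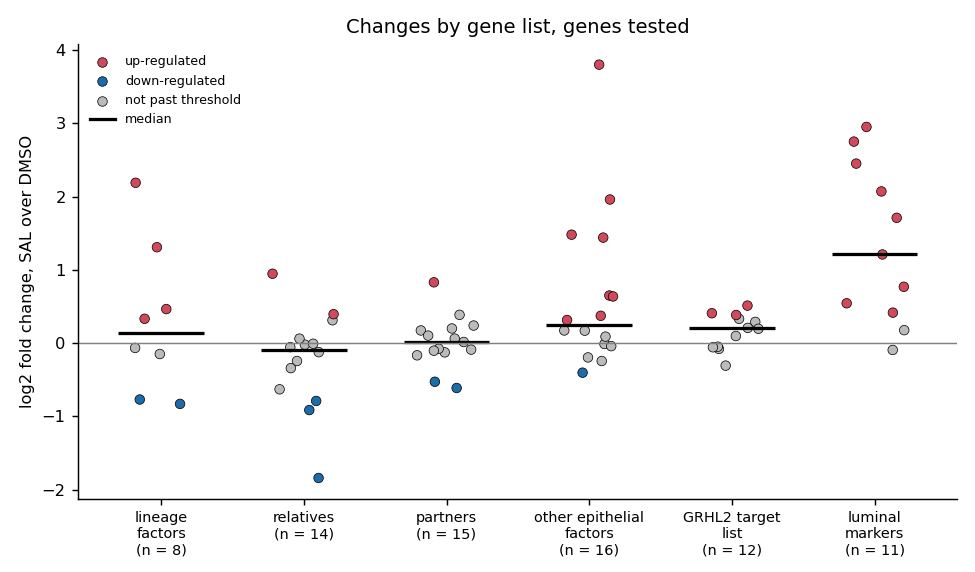
Log2 fold change of SAL over DMSO (vertical axis) for the genes tested in each list. Points are genes, coloured by direction where the adjusted p was under 0.05, with small horizontal offsets for legibility, and bars are medians. The lineage factors spread from -0.83 to 2.19 around a median of 0.13, and the luminal markers lie mostly above 0 with a median of 1.21. The highest point is RUNX1, which had at most 3 counts in each DMSO library, so its fitted value depends on the prior count.

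Of 13 epithelial genes known as GRHL2 targets, 12 were tested. In edgeR 3 of the 12 (25.0%) were up-regulated and none was down-regulated, against 11.5% and 9.37% of all genes tested. There 5 of the 12 had an unadjusted p under 0.05. DESeq2 called 2 up-regulated and none down-regulated, against 7.66% and 5.64% of all genes. The median log2FC of the 12 in edgeR was 0.20. ERBB3, a receptor kinase, rose with a log2FC of 0.51 (adjusted p = 0.00135), the splicing factor gene ESRP2 with 0.41 (adjusted p = 0.00853) and the protease inhibitor gene SPINT1 with 0.38 (adjusted p = 0.0103). CDH1, the gene of E-cadherin, had a log2FC of -0.08 (adjusted p = 0.615). None of the 12 was called without replicate 3, where 3 had an unadjusted p under 0.05. Without replicate 2 there was 1 up-regulated target of 12. Without replicate 1 there were 6 of 13 tested. Among all genes, the up-regulated DEGs were 1931 with all replicates, 1572 without replicate 2 and 2443 without replicate 1.

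The marker lists of several cell types were read beside the lineage factors. Of 12 luminal markers 11 were tested and 9 were up-regulated (81.8%, against 11.5% of all genes tested). The summed level of the 12 was 2260 to 3830 CPM in the DMSO libraries and 4300 to 8540 in the SAL libraries. SLC45A3 (prostein), KRT8 and TMPRSS2 had log2FC values of 2.95, 2.45 and 2.07 (adjusted p = 2.63e-11, 1.61e-10 and 9.14e-09), and the androgen-induced KLK3 of 1.21 (adjusted p = 3.33e-07). FOLH1 (949 CPM in DMSO and 901 in SAL) and ACPP had log2FC values of -0.09 and 0.18 and were not called (adjusted p = 0.545 and 0.704). None of the luminal markers was down-regulated in edgeR or DESeq2, where 9 had an unadjusted p under 0.05 in each. DESeq2 called 8 of the 11 up-regulated, against 7.66% of all genes. In edgeR without replicate 3, 7 of the 11 were up-regulated, as were 750 of all genes. Of 9 basal markers, KRT5, KRT17 and KRT6A had no counts, TP63 had at most 1, and only DST was tested. DST, a cytoskeletal linker gene, had 74.1 CPM in DMSO and 78.5 in SAL. The luminal MSMB had at most 30 counts in a library and was not tested. The summed level of the basal markers was 53.7 to 91.3 CPM in the DMSO libraries and 56.5 to 108 in the SAL libraries. In the basal, neuroendocrine and non-epithelial lists, 1, 3 and 2 genes were tested, and none was called or had an unadjusted p under 0.05 with edgeR or DESeq2, both with the block and the usual filter. Without the filter 2 basal genes and 1 neuroendocrine gene had an unadjusted p under 0.05, as did 1 neuroendocrine gene with a minimum of 10 counts per library, and none was called. Without replicate 1 the neuroendocrine enolase gene ENO2 was down-regulated (log2FC -0.85, adjusted p = 0.0385). The summed levels of the neuroendocrine markers were 5.08 to 14.4 CPM in DMSO and 4.74 to 9.21 in SAL, and those of the non-epithelial markers 3.22 to 14.6 and 3.20 to 13.6. The endothelial CDH5 and the leukocyte genes PTPRC and CD3E had no counts. The 2 non-epithelial genes tested were the collagen gene COL1A1, with 14 to 88 counts per library, and the endothelial VWF, with 4 to 35.

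The genes whose profile over the 6 libraries was nearest to that of a lineage factor were sought among 10308 other genes tested with a mean of at least 10 CPM. The distance is the root mean square difference of log2 CPM after each profile is centred on its mean. Nearest to HOXB13 were NSMF (0.05), MOCS1 (0.0567) and MID1IP1 (0.0634). Nearest to FOXA1 were FBXO31 (0.0575), PLEKHH3 (0.0579) and STX5 (0.0595), and nearest to GATA2 were FAM101B (0.0686), GPRIN2 (0.0863) and INPP5J (0.102). Among the lineage factors themselves, HOXB13 and FOXA1 were nearest to each other (0.270), and HOXB13 was the nearest to GATA2 (0.397). All of these profiles share the differences between the replicate numbers.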

How the data were processed

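Total RNA from C4-2 cells was sequenced with a stranded total RNA kit. After quality trimming, the authors aligned only the first mates to hg19 (TopHat2 2.1.0) and counted them over gencode v19 exons with HTSeq (0.11.2), ignoring strand. The deposited values are raw counts per gene symbol. Reads from opposite strands are therefore not separated.

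As in the study's methods, rRNA genes were removed and the libraries were paired. Genes were filtered with filterByExpr, scaled by TMM and tested with edgeR 4.0.16 (robust quasi-likelihood, replicate number as a block, R 4.3.3), with Benjamini-Hochberg adjustment over 16835 genes. SEs were obtained from the size of each log2FC over the root of its F statistic. The numbers come from the labels and pair the libraries (correlations of deviations 0.886, 0.856 and 0.739). Pair changes use log2 CPM with a prior count of 2. On simulated data from these libraries 71.7% of 191 changed genes were called, and 4.86% of calls were unchanged genes. The simulated counts followed the kind of model that was fitted, with the same replicate effects in both groups and no spread particular to a gene. The share called also depends on the sizes of change that were put in. These rates therefore do not show how many calls in the real libraries are right.

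Exon lengths and positions are from GENCODE v44 on GRCh37, and promoters from RefSeq (GRCh38.p14). The genes and lists were chosen with earlier results of these data known. Every lineage factor is named, with KLK3 and, of each other list, up to 3 DEGs per direction by adjusted p. Genes named beyond this rule were chosen after their values were seen. They are the other relatives, the partners and targets that were not called, the other markers, and those of the closing section. Alternatives were DESeq2 1.42.0, edgeR with the size factors of DESeq2, a fit without the block, fits without the filter or with a minimum of 10 counts per library, fits that kept rRNA or dropped mitochondrial genes, and fits that left out a replicate number. Having 6 libraries limits every test. The paper describes the RNA-seq triplicates as independent repeats. Some genes that the rule names are not reported here.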

Additional observations from a re-analysis of the deposited data

How the results depend on the processing

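The 8 lineage factor genes tested kept the sign of their log2 fold change under all 10 alternatives. Without the replicate block, the 4 up-regulated and 2 down-regulated lineage factors became 0 and 0, and the DEGs among all genes became 18 up-regulated and 3 down-regulated in place of 1931 and 1577. DESeq2 with the replicate block gave 950 down-regulated DEGs and 1290 up-regulated. With a replicate number left out, the up-regulated lineage factors numbered 2 to 4 (2 without replicate 3, which lost FOXA1 and GRHL2), and the DEGs 750 to 2443 up-regulated and 483 to 1955 down-regulated, both lowest without replicate 3. The 2 down-regulated lineage factors, GATA2 and TRPS1, were called with every replicate number left out. The calls of SPDEF, CREB3L4, GATA2 and TRPS1 were lost only without the block, and their log2 fold changes ranged from 1.98 to 2.33, 1.24 to 1.36, -0.90 to -0.74 and -0.90 to -0.64. The block moved no call of HOXB13 or ONECUT2. Without the filter GATA3 could be fitted, with a log2 fold change of 1.72 (adjusted p = 0.544) on 3 counts in DMSO and 12 in SAL. The cause of the differences between settings was not tested.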

Other observations

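Some further changes concern keratins and epithelial transcription factors, named after their values had been seen. KRT18 and KRT19, simple epithelial keratins like KRT8, were up-regulated by 1.71 and 2.75 on the log2 scale (adjusted p = 9.56e-05 and 5.72e-07). KRT19 had 26, 13 and 15 counts in the DMSO libraries and 127, 161 and 110 in the SAL libraries. RUNX1, a runt factor of epithelial and blood cells, had 3, 0 and 3 counts in DMSO, at or under the floor of 3 counts, and 28, 25 and 41 in SAL (adjusted p = 6.75e-05). NFIB, a nuclear factor I protein known to interact with FOXA1, rose with a log2 fold change of 0.64 (adjusted p = 0.000159), while its relatives NFIA, NFIC and NFIX had 0.09, 0.17 and -0.04 and were not called. The call of NFIB held in all 9 alternatives with the replicate block, and whether it differs from its relatives was not tested.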
